A study of Homo sapiens with 24 samples.

Results

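Messenger RNAs of 39 genes that encode the machinery of 3′ end formation, the poly(A) tail and the Integrator complex were followed through 24 libraries of 3′ end sequencing from 2 human cell lines. The genes were taken by name from a list of subunits and partners of this machinery. The names were matched without any measured value, but the list was drawn up with earlier results of these data known. All 39 were found among the 58138 gene names of each count table. Every one of them had enough reads to be tested in every comparison.

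Most messenger RNAs end where the nascent transcript is cut and tailed. The cleavage and polyadenylation specificity factor (CPSF) binds the AAUAAA signal and cuts. The cleavage stimulation factor (CSTF) binds sequence downstream of the cut, cleavage factors I and II help to choose and complete the site, and a poly(A) polymerase adds the tail that poly(A) binding proteins then cover. Integrator is a separate complex with a related endonuclease, which cuts small nuclear RNAs and ends transcription early at many protein-coding genes. Histone messenger RNAs, which have no poly(A) tail, use yet another set of factors. RPRD1A, RPRD1B and RPRD2 bind the C-terminal tail of RNA polymerase II, on which many of these factors also assemble, and the series asks how these proteins affect RNA levels.

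HEK293T, a human embryonic kidney line, was treated with siRNAs for 48 h in 8 groups of 2 libraries. They are a control siRNA (CTRL), the single knockdowns RPRD1A_KD, RPRD1B_KD and RPRD2_KD, the combined knockdowns RPRD1A_RPRD2_KD and RPRD1B_RPRD2_KD, the triple knockdown RPRD1A_RPRD1B_RPRD2_KD and RPRD1A_RPRD1A_KD. The last is written as labelled, although its label names RPRD1A in both places. Flp-In T-REx 293, another line of the 293 family, made with a site for an inserted gene and a tetracycline repressor, gave 4 groups of 2 libraries. FLP and its counterpart with tetracycline for 48 h, FLP_TET, stand beside the RPRD1B_FL line in the same 2 states, RPRD1B_FL and RPRD1B_FL_TET. The labels do not spell out FL or give the number of clones. They also do not say whether the libraries of a group came from separate cultures, so p-values measure the spread between these libraries, which may be technical. In RNA from whole cultures, fewer cells with a transcript and less of it per cell cannot be told apart.

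Total counts in genes ran from 1817246 to 3135625 in HEK293T and from 2342969 to 3531106 in Flp-In libraries, so that 3 counts correspond to 0.850 to 1.65 CPM. Levels are given in CPM, counts relative to the TMM library size. RPRD1A was at 157 ± 6.53 CPM (SD, n = 2) in CTRL and at means of 19.2 to 25.7 in the 4 groups named for it. In RPRD1B_KD, RPRD2_KD and RPRD1B_RPRD2_KD, which are not named for it, its means were 92.03, 84.9 and 75.5 CPM, also below CTRL. RPRD2 was at 98.1 ± 2.29 CPM (SD, n = 2) in CTRL and at 31.95 to 59.9 in its groups, against 94.4 to 99.2 in the other 3. RPRD1B was at 27.7 ± 0.202 CPM (SD, n = 2) in CTRL, at 7.55 to 10.3 in the 3 groups named for it, and also at 10.9 ± 4.17 (SD, n = 2) in RPRD1A_RPRD1A_KD, which is not. In the Flp-In lines RPRD1B had means of 35.8 CPM in FLP, 30.7 in FLP_TET, 45.2 in RPRD1B_FL and 78.5 in RPRD1B_FL_TET. VIM, KRT8, KRT18, NEFM, NEFL and PAX2, which 293 cells express, had reads in all 24 libraries, some near the floor of 3 counts. VIM and KRT18 were at 14.5 CPM or more throughout. In HEK293T the lowest values were 0.558 CPM for PAX2, 1.01 for NEFL and 1.54 for KRT8, and in Flp-In 0.764 for NEFM. Of 7 markers of other cell types, CDH5 was at 0 in all libraries, PTPRC, ALB, PECAM1 and HBB reached at most 0.678 CPM, COL3A1 4.37 and COL1A1 14.2. COL1A1 ran from 3.70 CPM in HEK293T, where KRT8 reached 6.44, NEFL 6.56 and PAX2 5.03, so the 2 lists overlapped in level. One library stood apart: on the leading principal component of HEK293T (29.03% of the variance), RPRD1A_RPRD2_KD replicate 2 lay at -50.7 and the other 15 between -2.42 and 11.4.

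Reads of these libraries come from the 3′ ends of transcripts, so levels were not divided by length. In the longest coding transcript of each gene in GENCODE release 29 (GRCh38, the build in the submitters' processing notes), the letters AATAAA lay within the last 50 bases for 29 of the 39 genes (74.4%, against 60.2% of 19669 coding genes), ATTAAA alone for 4 and neither for 6. The ends of CSTF2, its paralog CSTF2T and PAPOLG, whose levels differed between CTRL and FLP, are shown with this signal in capitals.
CSTF2-203: tgacttgaAATAAActttgaacacaatttt
CSTF2T-201: atgcagaaAATAAAgatacaattaaggctg
PAPOLG-202: agtaatcaAATAAAattgctttgataaat

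The 39 genes lie on 16 chromosomes. In GENCODE 29 the genes on which the results turn are INTS1 at chr7:1470277-1504367, INTS5 at chr11:62646848-62653302, PAPOLG at chr2:60756230-60802085, CSTF2 at chrX:100820359-100840932 and CSTF2T at chr10:51695487-51699591. Upstream sequences are shown for the same paralog pair, which differed in opposite directions between CTRL and FLP. They are also shown for INTS1, which had the largest difference between those groups. RefSeq (GRCh38.p14) promoters were matched by symbol for 31 of the 39 genes and not for CPSF1, PPP1CA, PABPC1, PABPC4, INTS5, INTS8, INTS9 and INTS10. Each window is the 250 bases before the annotated start, on the gene's own strand: chrX:100820141-100820390 (plus) for CSTF2, chr10:51699596-51699845 (minus) for CSTF2T and chr7:1504390-1504639 (minus) for INTS1. Capitals mark matches on either strand to 3 motifs, and no marked matches overlap. The SP1 motif was searched as GGGCGG. For ETS factors, a family with many members, the letters were CCGGAAG. The TATA box, found in a minority of promoters, was searched as TATAAA.
CSTF2: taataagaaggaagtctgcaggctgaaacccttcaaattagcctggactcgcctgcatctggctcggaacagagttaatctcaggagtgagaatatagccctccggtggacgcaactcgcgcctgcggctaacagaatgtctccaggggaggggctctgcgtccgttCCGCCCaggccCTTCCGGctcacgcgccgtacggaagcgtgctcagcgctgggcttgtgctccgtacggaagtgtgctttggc
CSTF2T: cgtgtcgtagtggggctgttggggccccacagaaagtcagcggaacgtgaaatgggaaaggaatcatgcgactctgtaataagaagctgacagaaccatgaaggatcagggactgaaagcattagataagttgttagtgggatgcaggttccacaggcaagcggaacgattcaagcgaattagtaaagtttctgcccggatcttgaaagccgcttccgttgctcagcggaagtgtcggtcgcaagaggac
INTS1: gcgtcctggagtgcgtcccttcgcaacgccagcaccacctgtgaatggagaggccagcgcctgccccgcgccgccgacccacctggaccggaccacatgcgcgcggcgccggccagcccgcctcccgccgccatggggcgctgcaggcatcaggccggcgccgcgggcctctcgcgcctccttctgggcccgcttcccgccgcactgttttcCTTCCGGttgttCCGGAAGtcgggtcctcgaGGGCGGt
The CSTF2 window held 1 SP1 and 1 ETS match, the INTS1 window 1 SP1 and 2 ETS matches, and the CSTF2T window none of the 3 motifs. GC content was 59.2% for CSTF2, 50.8% for CSTF2T and 74.0% for INTS1. An SP1 match was found in at least 1 promoter of 22 of the 31 genes, an ETS match for 8 and a TATA match for 1. Counted the same way, 46.2%, 10.2% and 13% of all 27305 genes in the table hold them, and 42.6%, 8.52% and 10.7% of its 35116 single windows. These are matches of letters, and binding was not measured.

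Among the 39 transcripts those of PABPC1 and PABPN1, both poly(A) binding proteins, had the highest mean levels in both lines. PABPC1, the main cytoplasmic poly(A) binding protein, ran at 874 to 1384 CPM (median 1153) in the 16 HEK293T libraries and at 430.5 to 649 (median 482) in the 8 Flp-In libraries. PABPN1, its nuclear counterpart, came next with 371 to 848 CPM (median 536) in HEK293T and 396 to 567 (median 477) in Flp-In. PABPC4, a cytoplasmic paralog of PABPC1, was at 163 to 220.2 CPM (median 199) and 262 to 437 (median 340.0). ZC3H14, which limits tail length in the nucleus, was the least abundant of the poly(A) binding group at 39.2 to 48.7 CPM (median 44.2) and 18.2 to 32.4 (median 25.1).

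The 6 CPSF subunits differed widely. CPSF4, a zinc finger subunit that contacts the signal, led with 98.6 to 158 CPM (median 119) in HEK293T and 76.3 to 132 (median 99.5) in Flp-In. CPSF1, the large scaffold of the complex, was lowest with 6.15 to 22.4 CPM (median 12.5) and 6.11 to 12.6 (median 8.19). The endonuclease CPSF3, its relative CPSF2, the polymerase partner FIP1L1 and the signal-binding WDR33 had HEK293T medians of 59.2, 77.7, 48.8 and 78.9 CPM. SYMPK, the scaffold that joins CPSF to CSTF, was above every CPSF subunit in the median, at 112 to 274 CPM (median 178) and 147 to 218 (median 189.5).

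Cleavage factor I was led by NUDT21, its RNA-binding subunit, at 71.5 to 198 CPM (median 144) in HEK293T and 130.3 to 223 (median 159.6) in Flp-In. Its partner CPSF6 was lowest at 56.7 to 86.6 CPM (median 76.5) and 57.7 to 70.6 (median 64.9), with CPSF7 at a median of 105 and 79.5 CPM. CSTF is built around the dimer of CSTF3, which was its most abundant member at 71.5 to 123 CPM (median 105) and 128 to 148 (median 134). CSTF1, a WD-repeat subunit, had medians of 22.4 CPM in HEK293T and 48.9 in Flp-In. Which of the RNA-binding paralogs was lowest differed by line: CSTF2T in HEK293T, at 8.47 to 21.3 CPM (median 14.5), and CSTF2 in Flp-In, at 9.83 to 19.5 (median 12.4).

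CLP1, the kinase subunit of cleavage factor II, was scarce, at 6.87 to 20.4 CPM (median 13.6) in HEK293T and 6.905 to 12.2 (median 8.23) in Flp-In. PAPOLA, the main poly(A) polymerase, was at 114 to 175 CPM (median 149.7) and 109 to 155 (median 125), and its relative PAPOLG at 12.2 to 27.2 CPM (median 16.5) and 9.54 to 16.8 (median 12.9). Within a library PAPOLA exceeded PAPOLG by a median of 9.08 times in HEK293T and 9.27 times in Flp-In, with overlapping ranges. The phosphatase PPP1CA was at 184 to 313 CPM (median 243) and 153 to 303 (median 207). RBBP6, which activates the CPSF endonuclease, was at 85.7 to 186 CPM (median 148) and 96.1 to 154 (median 112). The 2 exonucleases are EXOSC10 of the nuclear exosome and XRN2, which degrades the downstream product of cleavage. EXOSC10 was at 135 to 209 CPM (median 151) and 140.4 to 188 (median 174), and XRN2 at 69.3 to 101 CPM (median 84.3) and 95.1 to 137 (median 109.7).

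Integrator subunits covered a wide range although they form 1 complex. INTS5 was the most abundant of the 11 at 110.5 to 166 CPM (median 125) in HEK293T and 35.5 to 138 (median 84.5) in Flp-In. INTS4, which binds the endonuclease, was the least abundant of all 39 genes, at 4.37 to 9.48 CPM (median 6.85) and 2.98 to 6.12 (median 4.39). INTS1, INTS7 and INTS10 had HEK293T medians of 59.9, 55.7 and 59.5 CPM, and INTS2, INTS3, INTS6, INTS8, INTS9 and INTS12 lay between 15.7 and 29.4. The stem-loop binding protein SLBP, which marks histone messenger RNAs for processing, was at 31.9 to 76.97 CPM (median 67.2) and 51.6 to 79.4 (median 55.2). LSM11 of the U7 particle was the lowest of the histone group at 23.97 to 43.7 CPM (median 31.8) and 16.4 to 21.5 (median 19.1), with its partner LSM10 at medians of 35.3 and 38.6 CPM.

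**Figure D1:**
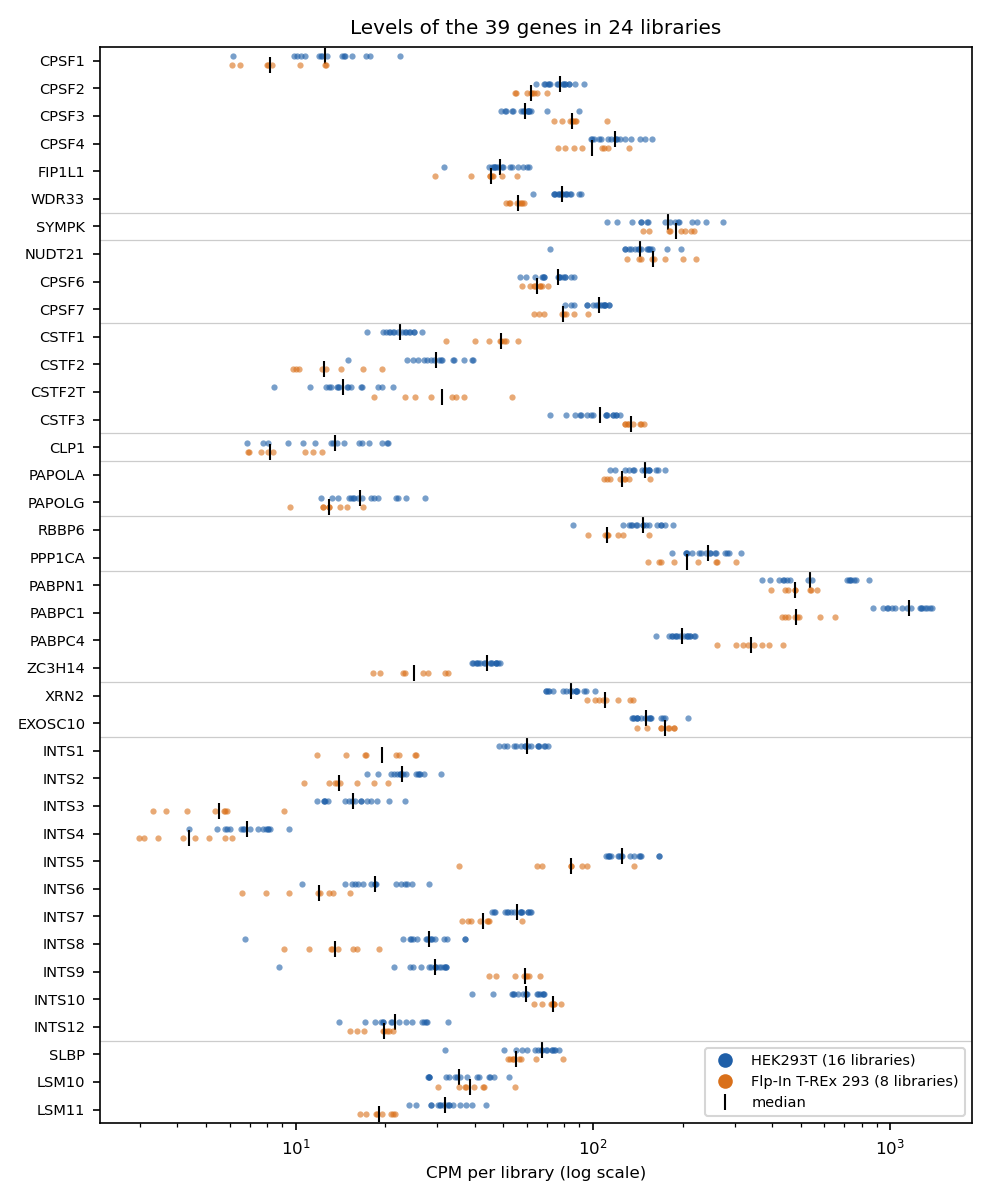
Level of each of the 39 genes, grouped by role, in every library, in CPM on a log axis, with the 16 HEK293T libraries in blue, the 8 Flp-In T-REx 293 libraries in orange and medians as black ticks. PABPC1 is highest with a HEK293T median of 1153 CPM and INTS4 lowest with 6.85, and the points of INTS1 and of INTS9 do not overlap between the lines.

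Each silenced group was compared with CTRL to see which of these transcripts follow the loss of RPRD proteins, by edgeR's quasi-likelihood test and Benjamini-Hochberg adjustment over the whole table. None of the 39 genes passed an adjusted p of 0.05 in any of the 7 comparisons. Few genes of any kind did: the percentage of all 11834 tested genes that passed was 0.00845 in RPRD1A_KD, RPRD1B_KD, RPRD2_KD and RPRD1A_RPRD2_KD and 0.0169 in RPRD1A_RPRD1A_KD, RPRD1B_RPRD2_KD and RPRD1A_RPRD1B_RPRD2_KD. DESeq2 also called 0 of the 39. Neither fit held a term for replicate number. With such a term in edgeR calls stayed at 0. With the term and without RPRD1A_RPRD2_KD replicate 2, a few of the 39 were called lower, as listed in the closing section. At an unadjusted p under 0.05, edgeR counted 1, 0, 0, 2, 3, 1 and 1 of the 39 in RPRD1A_KD, RPRD1B_KD, RPRD2_KD, RPRD1A_RPRD1A_KD, RPRD1A_RPRD2_KD, RPRD1B_RPRD2_KD and the triple knockdown. The percentages of all genes with such a p were 2.64, 3.46, 3.84, 3.99, 7.07, 2.51 and 3.99, and DESeq2 counted 0 to 2 of the 39.

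Differences were small in most of the genes. Between 36 and 39 of the 39 had a fold change within 1.5-fold of CTRL in each comparison. The median log2 fold change of the 39 lay between -0.10 and 0.01, and that of all genes between -0.01 and 0.00. The standard error of a log2 fold change had a median of 0.23 to 0.24. The 95% interval stayed within 2-fold of CTRL for 29 to 37 genes and within 1.5-fold for 9 to 17. Both libraries of a group lay below both CTRL libraries for 7, 5, 9, 4, 7, 8 and 4 of the 39 in the same order of groups, where 13.8, 14.1, 16.8, 15.9, 13.6, 14.2 and 16.2% of all genes did. All 7 comparisons share the 2 CTRL libraries, so an unusual CTRL value moves a gene the same way in each of them.

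An additive model with 1 term for each siRNA target over 14 HEK293T libraries (all but RPRD1A_RPRD1A_KD) gave narrower intervals. Again 0 of the 39 genes were called for RPRD1A, RPRD1B or RPRD2 by edgeR's quasi-likelihood test or by DESeq2, where the percentage of all 11781 genes called by edgeR was 0.0424, 0.0255 and 0.017. The unadjusted p was under 0.05 for 0, 1 and 0 of the 39 with each tool, against 3.58%, 5.25% and 2.96% of all genes in edgeR. All 39 intervals for each term lay within 2-fold, and 36, 35 and 34 of them within 1.5-fold. The median log2 fold change of the 39 was -0.01 for RPRD1A, 0.00 for RPRD1B and 0.00 for RPRD2.

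**Figure D2:**
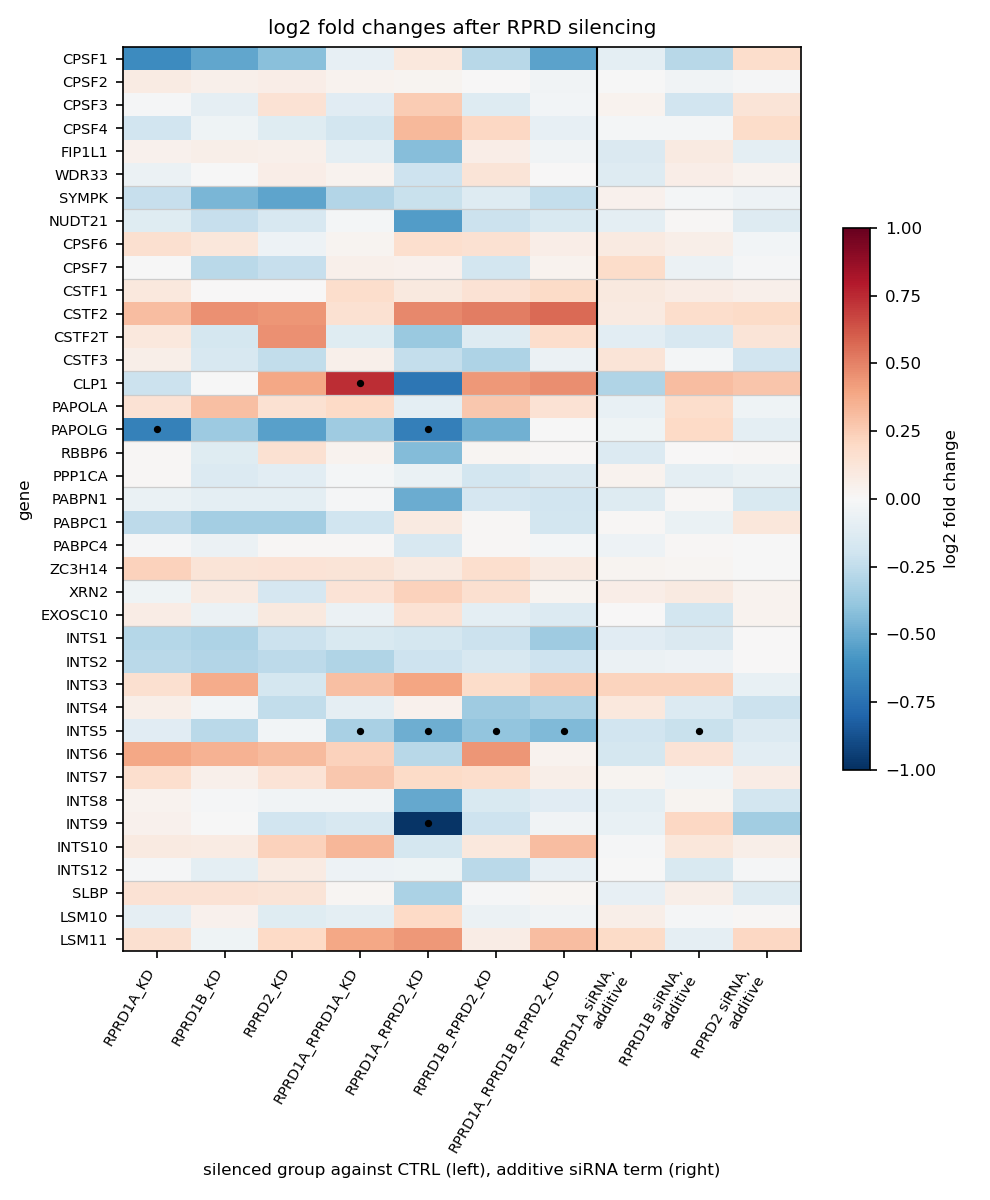
log2 fold change of the 39 genes, ordered by role, in the 7 silenced groups against CTRL and in the 3 additive siRNA terms, with lower in blue and higher in red; dots mark an unadjusted p under 0.05. Dots are few, no gene passed the adjusted threshold, and INTS5 carries 5 dots, all on the lower side.

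INTS5 had an unadjusted p under 0.05 in more of the 16 comparisons than any other of the 39 (9, with ZC3H14 next at 4). It read 166 and 145 CPM in the CTRL libraries, 144 and 142 in RPRD1A_KD, 125 and 133 in RPRD1B_KD and 166 and 138 in RPRD2_KD. In the groups with combined labels it read 122 and 125 (RPRD1A_RPRD1A_KD), 110.5 and 114 (RPRD1A_RPRD2_KD), 113 and 123 (RPRD1B_RPRD2_KD) and 113 and 115 (RPRD1A_RPRD1B_RPRD2_KD). In 6 of the 7 groups both libraries were below both CTRL libraries, an order that 13.6% to 16.2% of all genes had in each of those groups, while RPRD2_KD overlapped with CTRL. The log2 fold changes in the 4 combined groups, in that order, were -0.33 (SE 0.15), -0.49 (SE 0.15), -0.39 (SE 0.15) and -0.44 (SE 0.15). The unadjusted p was 0.04998, 0.00548, 0.0204 and 0.0106, and the adjusted p in edgeR's quasi-likelihood test was 1, 0.619, 1 and 1. The additive term of INTS5 was -0.19 (SE 0.0921) for RPRD1A and -0.23 (SE 0.0926) for RPRD1B, with edgeR adjusted p of 0.999 and 0.907.

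INTS1, the largest Integrator subunit, had 68.6 and 70.8 CPM in CTRL and 48.2 to 68.9 in the 14 knockdown libraries (median 59.1). INTS1 and INTS5 were each below both CTRL libraries in 13 of 14 knockdown libraries. That makes 2 of 39 genes (5.13%), and among all genes 2.75% reached 13 or more. Transcripts of INTS1 and INTS5 are rich in GC, at 64.7% and 59.8%. Across the 39, log2 fold changes had Spearman correlations with GC content of -0.32 to -0.17 in the knockdown comparisons, apart from RPRD1A_RPRD2_KD (0.19). With a correction for GC content INTS5 was at -0.39 in the triple knockdown, and the part of GC content in this order was not tested. None of the 39 was below CTRL in all 14, as 0.811% of all genes were, and none was above CTRL in all 14, as 0.93% were.

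PAPOLG read 18.4 and 27.2 CPM in CTRL, 12.2 and 16.2 in RPRD1A_KD, 15.5 and 15.7 in RPRD2_KD and 15.3 and 13.9 in RPRD1A_RPRD2_KD. None of these groups overlapped with CTRL, as 13.8%, 16.8% and 13.6% of all genes were below it, but the lower CTRL library was closer to them than to the other CTRL library. The log2 fold changes were -0.68 (SE 0.28), -0.55 (SE 0.28) and -0.68 (SE 0.29), with edgeR adjusted p of 1, 1 and 0.676. Leaving out 1 library at a time moved the value in RPRD1A_KD between -0.92 and -0.36, in RPRD2_KD between -0.78 and -0.22 and in RPRD1A_RPRD2_KD between -0.91 and -0.37, in each case smallest without CTRL replicate 2.

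PABPC1 was at 1278 and 1269 CPM in CTRL, at 977 and 1034 in RPRD1B_KD and at 1016 and 982 in RPRD2_KD, below CTRL in both, as 14.1% and 16.8% of all genes were. The log2 fold changes were -0.34 (SE 0.17) and -0.34 (SE 0.17), with an edgeR adjusted p of 1 and 1. In RPRD1A_RPRD2_KD it read 1384 and 1360.2 CPM, above CTRL like 14.2% of all genes. CPSF1 read 17.8 and 14.7 CPM in CTRL and 12.02 and 10.5 in RPRD1B_KD (log2 -0.52, SE 0.37, edgeR adjusted p 1).

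CLP1 read 10.6 and 13.4 CPM in CTRL and 20.4 and 19.6 in RPRD1A_RPRD1A_KD (log2 0.73, SE 0.33, edgeR adjusted p 1), without overlap, as in 15.4% of all genes. Its additive terms were -0.30 (SE 0.22) for RPRD1A and 0.31 (SE 0.22) for RPRD1B, opposite in sign, with 95% intervals of -0.76 to 0.16 and -0.15 to 0.76. CSTF2 was at 15.1 and 30.3 CPM in CTRL, 27 and 39.3 in RPRD1B_RPRD2_KD and 30.7 and 36.9 in RPRD1A_RPRD1B_RPRD2_KD. The 2 CTRL libraries of CSTF2 were far apart. Its log2 fold changes were 0.51 (SE 0.30) and 0.56 (SE 0.30), with edgeR adjusted p of 1 and 1. Without CTRL replicate 1 they were 0.12 and 0.18, and without CTRL replicate 2 they were 1.13 and 1.18.

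INTS9, the partner of the Integrator endonuclease, read 29.6 and 31.6 CPM in CTRL and 24.3 and 8.81 in RPRD1A_RPRD2_KD. The lower value belongs to the library that stood apart, in which INTS8 (6.78 CPM), SLBP (31.9) and NUDT21 (71.5) also had their lowest HEK293T values. The log2 fold change of INTS9 was -0.98 (SE 0.34) with an edgeR adjusted p of 0.623, and -0.32 without that library. With only that library left in its group, the log2 fold change of INTS9 was -1.83, and 1 library gives no spread of its own. The additive RPRD2 term of INTS9 was -0.35 (SE 0.19) with an edgeR adjusted p of 0.999, and leaving out 1 library at a time took it between -0.44 and -0.20. That library also had the strongest relation of levels to transcript GC content in HEK293T, a Spearman correlation over 8774 genes of 0.47 against -0.24 to 0.12 in the other 15. With a correction for GC content the INTS9 value was -0.98 (edgeR adjusted p 0.575).

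Several of the 39 genes differed by replicate number in HEK293T. PABPN1 was higher in replicate 1 than in replicate 2 in all 8 groups, with 545 to 848 CPM (median 733) against 371 to 528 (median 436). SYMPK showed the same order, with 182 to 274 CPM (median 205) against 112 to 175 (median 145), as did RBBP6 and XRN2. CPSF3, PPP1CA and LSM10 had the reverse order in all 8. The ratio of the mean of replicate 1 to that of replicate 2 was 1.66 for PABPN1, 1.504 for SYMPK and 0.716 for LSM10. Among all 11834 genes 6.05% were higher in replicate 1 in every group and 6.66% lower, against 4 (10.3%) and 3 (7.69%) of the 39. On the second principal component of HEK293T (20.59% of the variance), replicate 1 libraries lay between -13.7 and -7.99. Replicate 2 libraries lay between 8.95 and 18.2, apart from RPRD1A_RPRD2_KD replicate 2 at -6.17. The main fits hold no term for replicate number. In them SYMPK had log2 fold changes from -0.52 in RPRD2_KD to -0.13 in RPRD1B_RPRD2_KD. Its mean was below CTRL in all 7 silenced groups, each of which overlapped with CTRL. The labels do not say what libraries of one number share. The 3′ end of PABPN1 overlaps the read-through gene BCL2L2-PABPN1 on the same strand, and its count is uncertain for that reason.

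**Figure D3:**
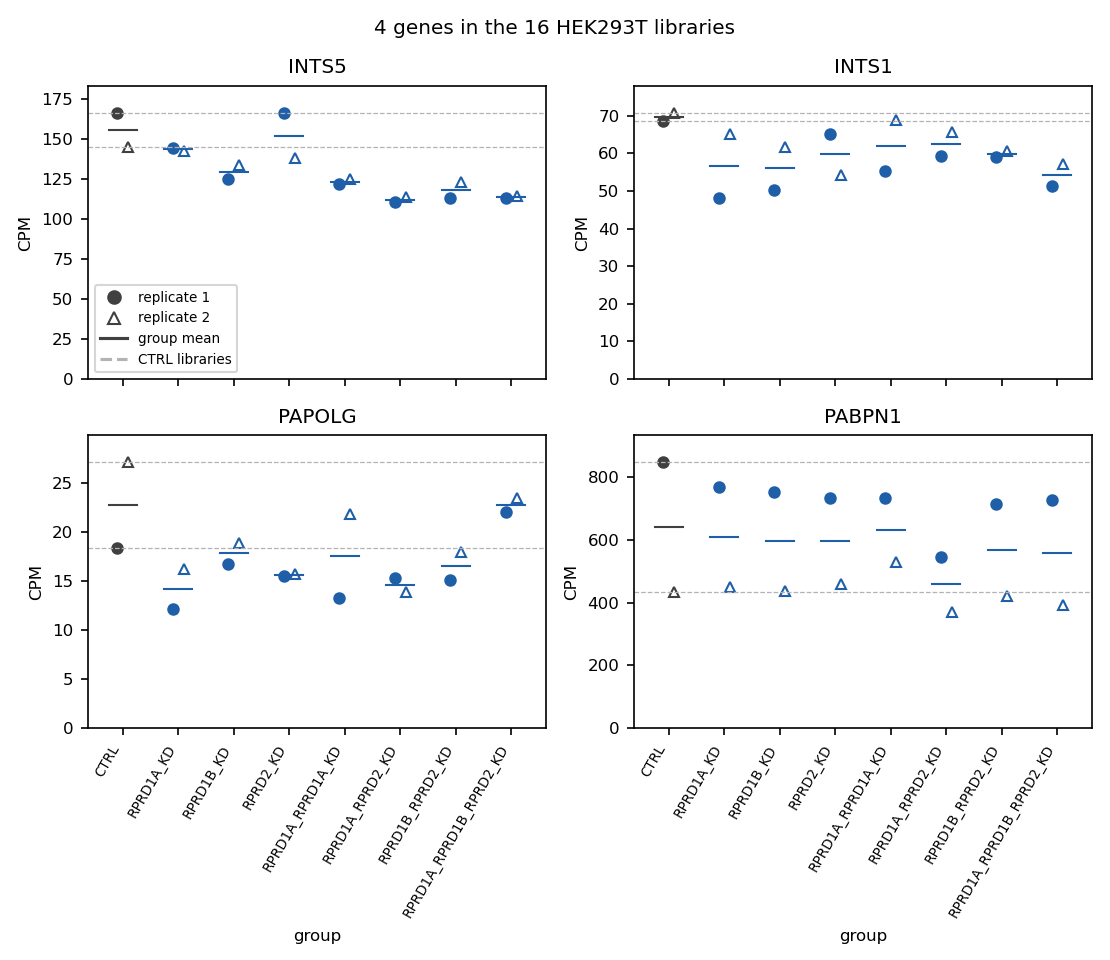
INTS5, INTS1, PAPOLG and PABPN1 in the 16 HEK293T libraries by group, in CPM, with circles for replicate 1, triangles for replicate 2, short lines for group means (n = 2) and dashed lines at the CTRL libraries. INTS5 lies below both CTRL libraries in 6 of the 7 silenced groups, at 110.5 to 125 CPM in the combined ones, and replicate 1 of PABPN1 lies above replicate 2 in every group.

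The Flp-In groups set the RPRD1B_FL line against FLP and tetracycline against its absence. With tetracycline in both lines, 0 of the 39 differed between RPRD1B_FL_TET and FLP_TET in edgeR's quasi-likelihood test, and the percentage called of all 11948 genes was 1.11. Of the 39, 2 had an unadjusted p under 0.05 in edgeR, against 10.3% of all genes, and 0 in DESeq2, which called 0. The median log2 fold change of the 39 was 0.00, and the 95% interval lay within 2-fold for 34 of them. ZC3H14 read 22.9 and 31.7 CPM in RPRD1B_FL_TET and 18.2 and 19.2 in FLP_TET (log2 0.52, SE 0.24, edgeR adjusted p 0.432). INTS4 read 6.12 and 5.81 CPM against 3.09 and 2.98 (log2 0.95, SE 0.44, edgeR adjusted p 0.443). Leaving out 1 library at a time moved ZC3H14 between 0.26 and 0.76, lowest without RPRD1B_FL_TET replicate 2. Neither gene overlapped between the groups, and both were higher in RPRD1B_FL_TET, as were 4 of the 39 (10.3%) and 19.5% of all genes without overlap.

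Without tetracycline, CSTF2T was the only one of the 39 that passed the test between RPRD1B_FL and FLP, where the percentage called of all genes was 1.18 (0.954 lower). The gene encodes a paralog of CSTF2, the RNA-binding subunit of CSTF. It read 18.3 and 23.3 CPM in RPRD1B_FL and 53.4 and 34.5 in FLP, without overlap, as 21.7% of all genes were below FLP. Its log2 fold change was -1.06 (SE 0.24), with a 95% interval of -1.55 to -0.57, an edgeR adjusted p of 0.0224 and a DESeq2 adjusted p of 0.0387. The FLP libraries were far apart, and without FLP replicate 1 the value was -0.73 (edgeR adjusted p 0.435). The call was also lost without RPRD1B_FL replicate 1 (-0.89, edgeR adjusted p 0.332), and without FLP_TET replicate 1 or 2, which enter only through the shared spread (edgeR adjusted p 0.062 and 0.0643).

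With tetracycline CSTF2T read 25.2 and 28.6 CPM in RPRD1B_FL_TET and 36.8 and 33.5 in FLP_TET (log2 -0.40, SE 0.23, edgeR adjusted p 0.601), again without overlap, like 18.8% of all genes. A correction for GC content gave -0.96 (SE 0.20, edgeR adjusted p 0.00701) without tetracycline and -0.38 (SE 0.20, edgeR adjusted p 0.396) with it. CSTF2 itself read 14.3 and 12.6 CPM in RPRD1B_FL, 10.3 and 10.1 in FLP, 16.8 and 9.83 in RPRD1B_FL_TET and 19.5 and 12.3 in FLP_TET. Between RPRD1B_FL and FLP 4 more of the 39 had an unadjusted p under 0.05, all on the higher side, so that 5 of 39 stood against 13.3% of all genes. INTS5 was at 84.5 and 67.6 CPM against 35.5 and 65.02 (log2 0.58, SE 0.23, edgeR adjusted p 0.273). It was 0.23 without FLP replicate 1 and 1.11, with an edgeR adjusted p of 0.0216, without FLP replicate 2. CPSF4 (113 and 92.1 CPM against 76.3 and 80.6) and SYMPK (198 and 181 against 155 and 147) had log2 fold changes of 0.39 (SE 0.18) and 0.34 (SE 0.15), with edgeR adjusted p of 0.37 and 0.337. With the GC correction INTS5, CPSF4 and SYMPK were at 0.50, 0.31 and 0.25.

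For tetracycline in the FLP line, 0 of the 39 passed edgeR's quasi-likelihood test, where the percentage called of all genes was 1.02, and DESeq2 called 1, INTS5. At an unadjusted p under 0.05 edgeR counted 13 of the 39 (33.3%), 9 higher and 4 lower, against 22.7% of all genes, and DESeq2 counted 9. Without RPRD1B_FL_TET replicate 1 or without its replicate 2, which enter only through the shared spread, more of the 39 were called. INTS5 had a log2 fold change of 0.81 in either fit, and the share of all genes called in them is not given here. INTS5 read 95.8 and 84.5 CPM in FLP_TET and 35.5 and 65.02 in FLP (log2 0.82, SE 0.23, edgeR adjusted p 0.0637), which was 0.46 without FLP replicate 1. SYMPK read 204 and 218 CPM against 155 and 147 (log2 0.48, SE 0.15, edgeR adjusted p 0.0812). These genes and CPSF4 were higher with tetracycline without overlap, as were 12 of the 39 (30.8%) and 29.7% of all genes, a share near the background. CPSF4 read 107 and 109 CPM against 76.3 and 80.6 (log2 0.45, SE 0.18, edgeR adjusted p 0.15). ZC3H14 differed the other way, with 18.2 and 19.2 CPM against 32.4 and 27.9 (log2 -0.69, SE 0.23, edgeR adjusted p 0.0934).

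The GC content of transcripts moved with these differences. Across the 39 genes the Spearman correlation of the log2 fold change with GC content was 0.70, and across 11750 genes it was 0.56. These are descriptions, since all genes share the same 4 libraries. The correlation of levels with GC content was -0.57 and -0.38 in the FLP libraries and 0.31 and 0.47 in the FLP_TET libraries. It was 0.20 and -0.51 in the RPRD1B_FL libraries and 0.63 and -0.13 in the RPRD1B_FL_TET libraries, so it also differed widely between libraries of one group. INTS5, SYMPK and CPSF4 have GC contents of 59.8%, 58.8% and 57.2%, and ZC3H14 of 41.4%. The correction for GC content subtracts each library's trend with the same GC values, so a lower correlation follows from the method. After it the correlation over the 39 genes was 0.18. At an unadjusted p under 0.05 in edgeR, 8 were higher and 2 lower (18.3% in either direction among all genes). INTS5 was then at 0.57 (SE 0.18, edgeR adjusted p 0.0815), SYMPK at 0.25, CPSF4 at 0.27 and ZC3H14 at -0.43, each in the direction it had before.

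**Figure D4:**
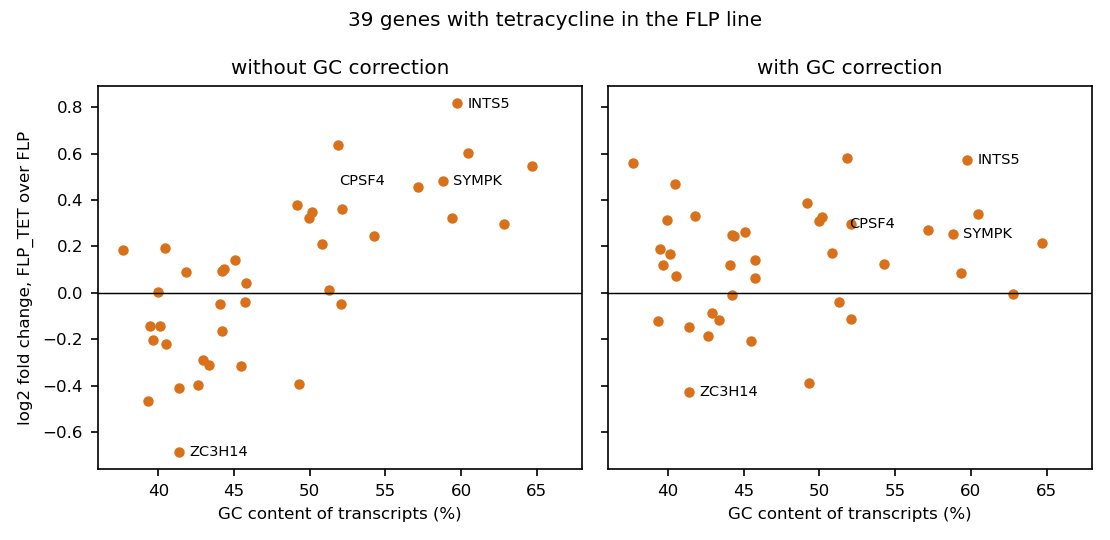
log2 fold change of the 39 genes with tetracycline in the FLP line against the GC content of their transcripts in percent, 1 point a gene, without (left) and with (right) a correction for GC content. The rise from low to high GC content is a Spearman correlation of 0.70. It is 0.18 after the correction, which takes out such a trend by its method, and INTS5 is then at 0.57.

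In the RPRD1B_FL line, tetracycline gave 0 calls among the 39 and 0 among all 11948 genes by the quasi-likelihood test of edgeR (percentage called 0) and in DESeq2, and at an unadjusted p under 0.05 both tools counted 1 of the 39, against 6.13% of all genes in edgeR. INTS5, the gene that edgeR counted, read 138 and 91.6 CPM in RPRD1B_FL_TET and 84.5 and 67.6 in RPRD1B_FL (log2 0.57, SE 0.22, edgeR adjusted p 0.788). Across the 39 genes the log2 fold change had a Spearman correlation of 0.53 with GC content here, and with the GC correction INTS5 was at 0.44 (SE 0.17). INTS3, a subunit shared with a DNA repair complex, read 9.17 and 5.81 CPM against 3.66 and 5.73 (log2 0.67, SE 0.43, edgeR adjusted p 0.8). Leaving out 1 library at a time moved INTS5 between 0.26 and 0.82 and INTS3 between 0.30 and 1.02, both lowest without RPRD1B_FL_TET replicate 1. Neither gene overlapped between the groups, and INTS3 was separated only by the gap from 5.81 to 5.73 CPM. Such an order, higher with tetracycline, was found for 7 of the 39 (17.9%) and 17.3% of all genes.

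Whether the tetracycline difference itself differed between the lines was tested as an interaction. It gave 0 calls among the 39 and 0 in the whole table (percentage called 0) with edgeR and in DESeq2, with 2 of the 39 at an unadjusted p under 0.05 in edgeR, against 3.99% of all genes, and 0 in DESeq2. ZC3H14 had the largest term, 0.78 (SE 0.33) with an edgeR adjusted p of 0.991, and between 0.52 and 1.02 with 1 library left out. It read 22.9 and 31.7 CPM with and 23.4 and 26.7 without tetracycline in RPRD1B_FL. For SYMPK (213 and 179.6 CPM with and 198 and 181 without) the term was -0.45 (SE 0.21) with an edgeR adjusted p of 0.991. For INTS5, which was higher with tetracycline in both lines, it was -0.25 with a 95% interval of -0.91 to 0.41.

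CTRL in HEK293T and FLP in Flp-In T-REx 293 were compared last. The contrast spans the cell line and an siRNA transfection, which cannot be told apart. Of the 39 genes 15 passed in edgeR, with CTRL higher for 10 and lower for 5, and DESeq2 called 15 too. The percentage called of all 12803 genes was 33.4 (16.1 higher, 17.4 lower), so that 15 of 39 is a share near the background. At an unadjusted p under 0.05 edgeR counted 17 higher and 6 lower, against 42.8% of all genes in either direction. The median log2 fold change was 0.45 for the 39 and 0.02 for all genes. For the 33 of the 39 with a mean count of 50 or more it was 0.13, and under the other settings it lay between 0.32 and 0.51. With a correction for GC content 15 were called higher and 3 lower, 18 of 39 where 35.8% of all genes were called. Reads not assigned to 1 gene made up 40.5% to 48.5% of reads in HEK293T and 30.4% to 33.2% in Flp-In libraries, and their part in the differences was not tested.

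The largest differences were in Integrator, where 4 of 11 genes were higher in CTRL and 1 lower. INTS1 was at 68.6 and 70.8 CPM in CTRL and at 17.2 and 17.3 in FLP (log2 2.01, SE 0.24, edgeR adjusted p 5.16e-07). INTS5 was at 166 and 145 against 35.5 and 65.02 CPM (log2 1.61, SE 0.22, edgeR adjusted p 3.3e-06). Both genes were higher in CTRL by more than the spread of either group. INTS3 read 12.8 and 14.7 against 5.34 and 4.32 CPM (log2 1.52, SE 0.38, edgeR adjusted p 0.00292). Its 3′ end overlaps SLC27A3 on the same strand, which makes its count uncertain. INTS2, a scaffold subunit, was at 23.4 and 30.7 against 10.7 and 18.4 CPM (log2 0.88, SE 0.28, edgeR adjusted p 0.0173). INTS9 was lower in CTRL, at 29.6 and 31.6 against 44.6 and 59.8 CPM (log2 -0.78, SE 0.27, edgeR adjusted p 0.0256). The other 6 Integrator genes did not pass.

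In CSTF the RNA-binding subunit and its paralog differed in opposite directions. CSTF2 was at 15.1 and 30.3 CPM in CTRL and at 10.3 and 10.1 in FLP (log2 1.18, SE 0.34, edgeR adjusted p 0.00885), and without CTRL replicate 2 the value was 0.54 with an edgeR adjusted p of 0.386. CSTF2T was at 16.7 and 12.9 CPM against 53.4 and 34.5 (log2 -1.57, SE 0.27, edgeR adjusted p 8.84e-05). The ratio of CSTF2 to CSTF2T within a library ran from 0.90 to 4.68 (median 1.90) over the 16 HEK293T libraries and from 0.193 to 0.78 (median 0.448) over the 8 Flp-In libraries, without overlap. CSTF1 was also lower in CTRL, at 25.1 and 17.4 against 32.1 and 49.2 CPM (log2 -0.96, SE 0.24, edgeR adjusted p 0.00317), while CSTF3 did not pass, at 98.2 and 123 against 131 and 131 CPM. CSTF2T lies opposite PRKG1, and the strand setting of the counting is not given in the sources used here, so reads of the 2 genes may not be told apart.

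PABPC1 and PABPC4 also differed in opposite directions. PABPC1 was at 1278 and 1269 CPM in CTRL against 430.5 and 443 in FLP (log2 1.54, SE 0.18, edgeR adjusted p 2.38e-07). PABPC4 was at 212 and 191 against 318 and 262 CPM (log2 -0.52, SE 0.18, edgeR adjusted p 0.0261). Their ratio was 3.99 to 8.35 (median 5.86) in the HEK293T libraries and 1.25 to 1.76 (median 1.39) in the Flp-In libraries. Of the poly(A) polymerases PAPOLG was higher in CTRL, at 18.4 and 27.2 against 9.54 and 12.4 CPM (log2 1.05, SE 0.27, edgeR adjusted p 0.00408), and PAPOLA was not called.

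Of the CPSF genes, CPSF4 was higher in CTRL, at 119 and 123 against 76.3 and 80.6 CPM (log2 0.62, SE 0.19, edgeR adjusted p 0.0124). WDR33 was at 76.4 and 81.9 against 52.7 and 57.5 CPM (log2 0.52, SE 0.17, edgeR adjusted p 0.0208). CPSF7 of cleavage factor I was at 109 and 104 against 63.3 and 65.6 CPM (log2 0.72, SE 0.18, edgeR adjusted p 0.00241). In these 3 genes both CTRL libraries were above both FLP libraries, an order found for 19 of the 39 and for 32.9% of all genes. The exonuclease XRN2 was lower, at 88.7 and 70.8 against 137 and 108 CPM (log2 -0.62, SE 0.19, edgeR adjusted p 0.0119). ZC3H14 did not pass, at 41.8 and 39.2 against 32.4 and 27.9 CPM (log2 0.43, SE 0.20, edgeR adjusted p 0.106). SYMPK, CLP1, RBBP6, PPP1CA, PABPN1, EXOSC10 and the 3 histone genes were not called either. Fewer of the 39 were called without CTRL replicate 2 or without FLP replicate 1, and the share of all genes called in those fits is not given here. INTS1, INTS3, INTS5, PABPC1, CSTF2T and CPSF7 were called under every alternative setting in which each was tested.

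**Figure D5:**
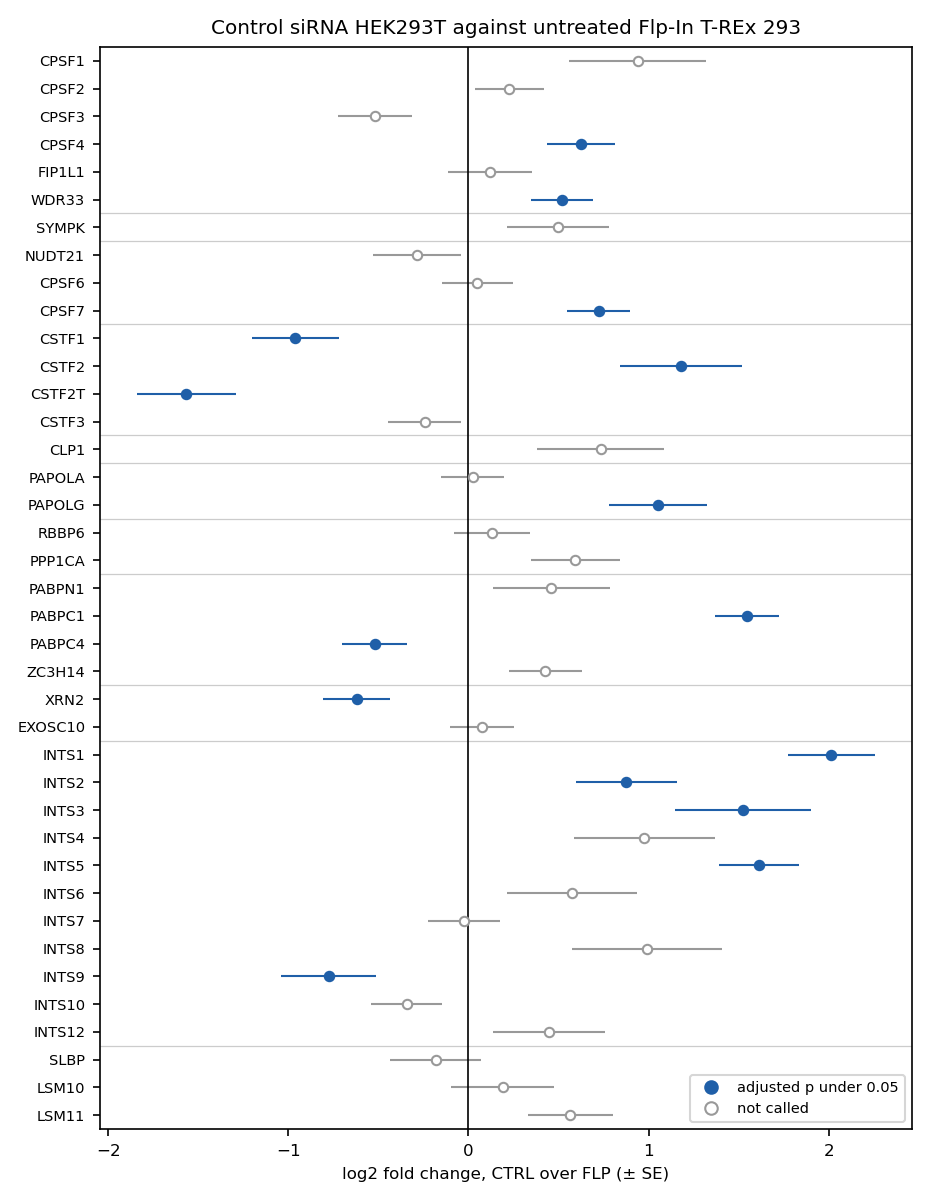
log2 fold change of the 39 genes between CTRL (HEK293T) and FLP (Flp-In T-REx 293) with its standard error, n = 2 libraries a group, with filled blue points for genes that passed an adjusted p of 0.05 and open grey points for the others. INTS1, at 2.01, is the highest and CSTF2T, at -1.57, the lowest.

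The lines were also set side by side over all libraries, whatever the treatment. WDR33, PABPC1, ZC3H14, INTS1, INTS3 and LSM11 were higher in each of the 16 HEK293T libraries than in each of the 8 Flp-In libraries (6 of 39, or 15.4%, against 8.7% of all genes). CSTF1, CSTF3, PABPC4 and INTS9 were lower in each (4 of 39, or 10.3%, against 11.8%). The other 29 genes overlapped between the lines. Among them was INTS5, whose Flp-In values ran from 35.5 CPM in FLP to 138 in RPRD1B_FL_TET.

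For context, 60 other genes of the same pathways were examined, such as PCF11, further Integrator subunits, the nuclear exosome and NELF, and 57 of them passed the filter on low counts. None was called in the 7 knockdown and 3 additive comparisons by edgeR's quasi-likelihood test, with 0 to 4 per comparison at an unadjusted p under 0.05. In the Flp-In comparisons 1 was called, PAPD7 (TENT4A), a poly(A) polymerase of another class, which fell in RPRD1B_FL against FLP and in RPRD1B_FL_TET against FLP_TET. Between CTRL and FLP 13 were higher and 5 lower, a share (31.6%) near the 33.4% of all genes, with a median log2 fold change of 0.19 over the 57.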

How the data were processed

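RNA was extracted with TRIzol and made into QuantSeq 3′ REV libraries, per the labels' protocols. The deposited tables hold raw counts of reads per gene name, 1 table per library. FastQC, STAR, HTSeq, DESeq2 and GRCh38 are listed in the submitters' processing notes. Versions, annotation and strand setting of the counting are not given in the sources used here. Closing lines for unassigned reads (30.4% to 48.5% of reads) were kept out of library sizes. Reads without molecular identifiers are not independent molecules, so floors cover counting error only.

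The 39 genes and the list of 60 other pathway genes were chosen with earlier results of these data known. Counts of all genes passing filterByExpr (minimum count 10, minimum total 15) were fitted with edgeR 4.0.16 (R 4.3.3) using TMM scaling and quasi-likelihood tests. HEK293T (16 libraries), the additive siRNA model (14), Flp-In (8) and all 24 libraries (CTRL against FLP) were fitted separately, with Benjamini-Hochberg adjustment over all genes tested and a threshold of 0.05. CPM were scaled over all 24 libraries. Alternatives were RLE size factors, DESeq2 1.42.0, other filters on low counts, a replicate block, a lowess correction for transcript GC content (span 0.3), fits of only the groups compared and leaving out each library. The fits were tested on simulated data.

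Values are named for the called genes of a comparison or, with none called, the one with the smallest p, for the largest fold change, and for genes with an unadjusted p under 0.05 in at least 3 comparisons. Other values given beside these were chosen after they were seen. Overlaps at 3′ ends were taken from GENCODE 29 over the last 1000 bases: 4 of the 39 genes overlap another gene on the same strand and 12 on the other.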

Additional observations from a re-analysis of the deposited data

Results flagged for a closer look

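The log2 fold change of INTS4 with tetracycline had opposite signs in the 2 Flp-In lines, -0.32 in FLP and 0.27 in RPRD1B_FL, and neither was called. In FLP it read 4.20 and 3.45 CPM without and 3.09 and 2.98 with tetracycline, and in RPRD1B_FL 5.12 and 4.58 without and 6.12 and 5.81 with it. Both libraries with tetracycline thus read below both without it in one line and above them in the other. In FLP 28.3% of all genes read lower with tetracycline without overlap, and in RPRD1B_FL 17.3% read higher. The share of all genes with both orders was not counted. The difference between the 2 log2 fold changes was 0.59 (SE 0.61) and did not pass the quasi-likelihood test of edgeR (adjusted p 0.991). These values come from few reads per library, and INTS4 is the least abundant of the 39 genes.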

How the results depend on the processing

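No named gene's log2 fold change reversed under any alternative. The median log2 fold change of the 39 changed sign under at least 1 setting in 11 of 16 comparisons. In those 11 it lay between -0.04 and 0.09 with all libraries. The farthest values of the other sign were -0.06 in RPRD1A_KD without its replicate 1 and 0.06 in RPRD1A_RPRD1A_KD without CTRL replicate 1. In the 7 knockdown and 3 additive comparisons, 236 of 241 combinations of comparison and setting called 0 of the 39 genes, and in the 5 Flp-In comparisons 59 of 79 did. For tetracycline in FLP, where edgeR called 0, the count was 1 with DESeq2, 2 with no filter on low counts and 6 with only the compared groups in the fit, and the cause was not tested. The share of all genes called in each of those fits is not given here, so these counts are not read as a result about the 39. Leaving out 1 library at a time gave 0 to 4 calls in RPRD1A_RPRD2_KD (4 without its replicate 1), 0 to 2 in RPRD1B_FL against FLP (1 with all libraries), 0 to 6 for tetracycline in FLP and 7 to 19 in CTRL against FLP (15 with all libraries). Replicate numbers were checked as pairs: deviations of same-numbered libraries from their group means had a mean correlation of 0.34 in HEK293T (-0.01 to 0.53, above 0.1 in 26 of 28 pairs of groups) and -0.018 in Flp-In (-0.35 to 0.45), and each comparison holds only 2 pairs. With the replicate block, calls stayed at 0 in the knockdown and additive comparisons. CSTF2T was again called in RPRD1B_FL against FLP (-1.05, edgeR adjusted p 0.0293). CTRL against FLP gave 19 calls with the block, or 21 with the GC correction as well. The share of all genes called with the block is not given here. With the block and without RPRD1A_RPRD2_KD replicate 2, a few of the 39 were called, all lower. They were SYMPK in RPRD1B_KD and RPRD2_KD, PABPC1 in RPRD2_KD, PABPN1 in RPRD1A_RPRD2_KD and INTS5 in RPRD1A_RPRD1B_RPRD2_KD (-0.44). That fit leaves 1 library in RPRD1A_RPRD2_KD, and the share of all genes called in it is not given here. Depth limits the least abundant genes most, since 3 counts are 0.850 to 1.65 CPM and INTS4 held 9 to 24 counts per library.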
